A study of Homo sapiens with 6 samples.

Results

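Lysosome genes were followed in PC9, an established human lung adenocarcinoma line that carries an activating EGFR mutation. They were chosen as 31 listed gene symbols, and 28 of these were found in all 6 count tables, which together name 26195 symbols. The levels of GLA, NEU1 and ATP6AP1 were not analysed here, but their promoters are part of the motif search below. Drop-seq was used, in which single cells are caught in droplets and every captured transcript receives its own molecular tag (a unique molecular identifier, UMI), and each of the 6 conditions had 1 library. Levels are in CPM, the UMIs of a gene per 1000000 UMIs of its library, summed over cells that had 500 UMIs or more and no more than 20% mitochondrial (MT-) UMIs.

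Erlotinib, an inhibitor of the EGFR kinase, was given at 2 µM for 1 day in 4 libraries, each together with a manipulation of KDM5A or KDM5B, demethylases of histone H3. The first received the KDM5 inhibitor CPI-455 at 6.25 µM for 4 days. Per the labels its erlotinib was added a day after CPI-455 and also lasted 1 day, which cannot both hold if cells were collected at the end of the 4 days. The second carried lentivirus with KDM5A shRNA and the third, per its label, lentiviruses with KDM5A and KDM5B shRNA, all in the pLVTHM vector with GFP. The fourth carried KDM5A cDNA under the CMV promoter, in a pLenti-CMV-Hygro vector with a FLAG and HA tag. Erlotinib was started on day 4 after transduction with KDM5A shRNA, on day 5 with both shRNAs and on day 6 with the cDNA. The libraries without erlotinib were PC9 cells with a scrambled shRNA in pLVTHM and untreated PC9 cells. Transduced cells were kept in 10% serum and the CPI-455 and untreated cells in 5% serum, so transduction and serum cannot be told apart. No library received erlotinib alone, so erlotinib could be compared only together with a KDM5 manipulation.

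Lysosomes are acidic organelles in which hydrolases break down proteins, lipids, glycans and nucleic acids delivered by endocytosis and autophagy. A proton pump, the V-ATPase, acidifies the lumen, heavily glycosylated membrane proteins line it, and transporters return the products to the cytosol. Many lysosome genes carry an E-box (CACGTG) near their start site, and TFEB, TFE3 and MITF bind its extended forms, in which T and A, and then G and C, flank the E-box, when they enter the nucleus.

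The E-box was searched in windows from 250 bases before to 50 bases after the start site in RefSeq promoters (GRCh38.p14), matched by symbol. All of the motifs searched read the same on both strands, and each longer motif contains the shorter ones. Of 23 listed genes with a window, 7 held CACGTG, a share of 30.4%, against 8.77% of all 27305 genes with a window. The 7 were CTSA, CTSD, LAMP1, CD63, GAA, MCOLN1 and NEU1, and the level of NEU1 was not analysed. The 8-base form TCACGTGA was held by 4, or 17.4%, against 1.18% of all genes, and the 10-base form, TCACGTGA with G before and C after it, by 2, or 8.70%, against 0.421%. Counted per window, 7 of 35 windows of the listed genes held CACGTG, against 7.26% of all 35116 windows. The sites below are shown because they belong to a protease that passed the erlotinib test (CTSA), to genes that did not pass (GAA, LAMP1 and CTSD) and to a channel too low to be tested (MCOLN1), each as 30 bases with the E-box in capitals.
CTSA: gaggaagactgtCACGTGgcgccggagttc
CTSA: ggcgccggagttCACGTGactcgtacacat
GAA: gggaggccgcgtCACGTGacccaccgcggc
GAA: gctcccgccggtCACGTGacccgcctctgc
LAMP1: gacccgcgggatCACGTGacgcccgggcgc
CTSD: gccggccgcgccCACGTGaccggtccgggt
MCOLN1: gggctaccgggtCACGTGaccgaggcacag
The CTSA sites lie at chr20:45891281-45891310 and chr20:45891298-45891327 on the plus strand, with the E-box starting 42 and 25 bases before the start site, and these windows overlap. The GAA windows lie at chr17:80101493-80101522 and chr17:80101538-80101567 on the plus strand, 76 and 31 bases before it, and both hold the full 10-base form. LAMP1 had 6 sites, of which the one at chr13:113297199-113297228 on the plus strand, 28 bases before the start, is shown. The CTSD site lies at chr11:1763957-1763986 on the minus strand, 47 bases before the start. For MCOLN1, the site at chr19:7522598-7522627 on the plus strand, 14 bases before the start, holds the 10-base form. Among tested genes with a window, 1 of 6 that passed the erlotinib test and 4 of 13 that did not held CACGTG.

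The kept cells numbered 202, 374, 152 and 131 in the erlotinib libraries, in the order above, against 263 with scrambled shRNA and 1166 untreated, with between 590091 and 3956647 UMIs a library. A count of 3, the limit that a count of 0 allows, corresponds to between 0.758 and 5.08 CPM. KDM5A stood at 56.4 CPM in the KDM5A shRNA library and 41.3 CPM in the one labelled KDM5A and KDM5B shRNA, against 81.9 CPM with scrambled shRNA. It reached 164 CPM with KDM5A cDNA, against 121 CPM untreated and 120 CPM with CPI-455. The KDM5A counting interval with KDM5A shRNA (45.3 to 69.3 CPM) overlapped that with scrambled shRNA (67.0 to 99.0 CPM). The interval in the library labelled KDM5A and KDM5B shRNA (27.9 to 59.0 CPM) lay below it. KDM5B stood at 102, 151, 138 and 94.9 CPM in the CPI-455, KDM5A shRNA, labelled KDM5A and KDM5B shRNA and KDM5A cDNA libraries, against 46.4 CPM with scrambled shRNA and 60.4 CPM untreated. It was thus higher in every erlotinib library than in both others. The library labelled with KDM5B shRNA was not lower than scrambled shRNA, and its counting interval (112 to 168 CPM) overlapped that of the KDM5A shRNA library (133 to 171 CPM), so a KDM5B knockdown was not seen in it. Epithelial keratins marked all 6 libraries. Of 10 macrophage markers, 5 had a row, and apart from CD68, itself a lysosomal protein, each had between 0 and 3 UMIs in any library. Kept cells of different libraries shared 1 barcode. An undetermined base (N) ended 59 of 202, 118 of 374, 43 of 152 and 34 of 131 kept barcodes with erlotinib. It ended 60 of 263 with scrambled shRNA and 41 of 1166 in untreated cells, where the share was lowest. The part of this difference in the results was not tested.

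With erlotinib, 9 of 27 tested lysosome genes were higher and 0 were lower at an adjusted p under 0.05 (edgeR quasi-likelihood test, 4 libraries against 2), against backgrounds of 10.0% higher and 13.5% lower of 10445 tested genes. The 9 were CTSH, GRN, ASAH1, PSAP, GLB1, LAPTM4A, CTSB, SQSTM1 and CTSA. At an unadjusted p under 0.05 in the same test, 12 had a fold above 0 and 0 had a fold below 0. The shares of all tested genes at that unadjusted threshold were not computed, so nothing is read from these counts. DESeq2 and limma-voom also called 0 lower. The median log2 fold was 0.50 over the 27 genes and 0.01 over all tested genes. In 11 of the 28 genes with a row, all 4 erlotinib libraries lay above both others, and in 2 (ATP6V1A and LAPTM4B) all 4 lay below. Over all tested genes these shares were 18.6% above and 26.7% below. The other 15 overlapped. MCOLN1, the TRPML1 cation channel, was too low to be tested, at between 1.69 and 6.89 CPM in the 6 libraries.

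Each erlotinib library had another KDM5 manipulation, so the spread behind the test includes differences between these manipulations. Mitochondrial transcripts made up between 7.04% and 9.18% of UMIs in the erlotinib libraries, against 5.03% with scrambled shRNA and 3.98% in untreated cells. With mitochondrial transcripts left out, 9 lysosome genes were again called higher. Processed pseudogenes made up 2.90% of UMIs with CPI-455, 1.32% with KDM5A shRNA and 3.42% with KDM5A cDNA. They made up 2.49% in the library labelled KDM5A and KDM5B shRNA, against 1.38% with scrambled shRNA and 1.02% untreated. The part of this share in the calls was not tested. Cell cycle genes moved strongly: 28 of 30 listed fell, with a summed level between 342 and 948 CPM in the erlotinib libraries, against 5481 CPM with scrambled shRNA and 6894 CPM untreated. Their part in the lysosome result was not tested between libraries; a split of cells within libraries is given further on. Without the scrambled library 5 lysosome genes were called, and without the untreated library 4.

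**Figure D1:**
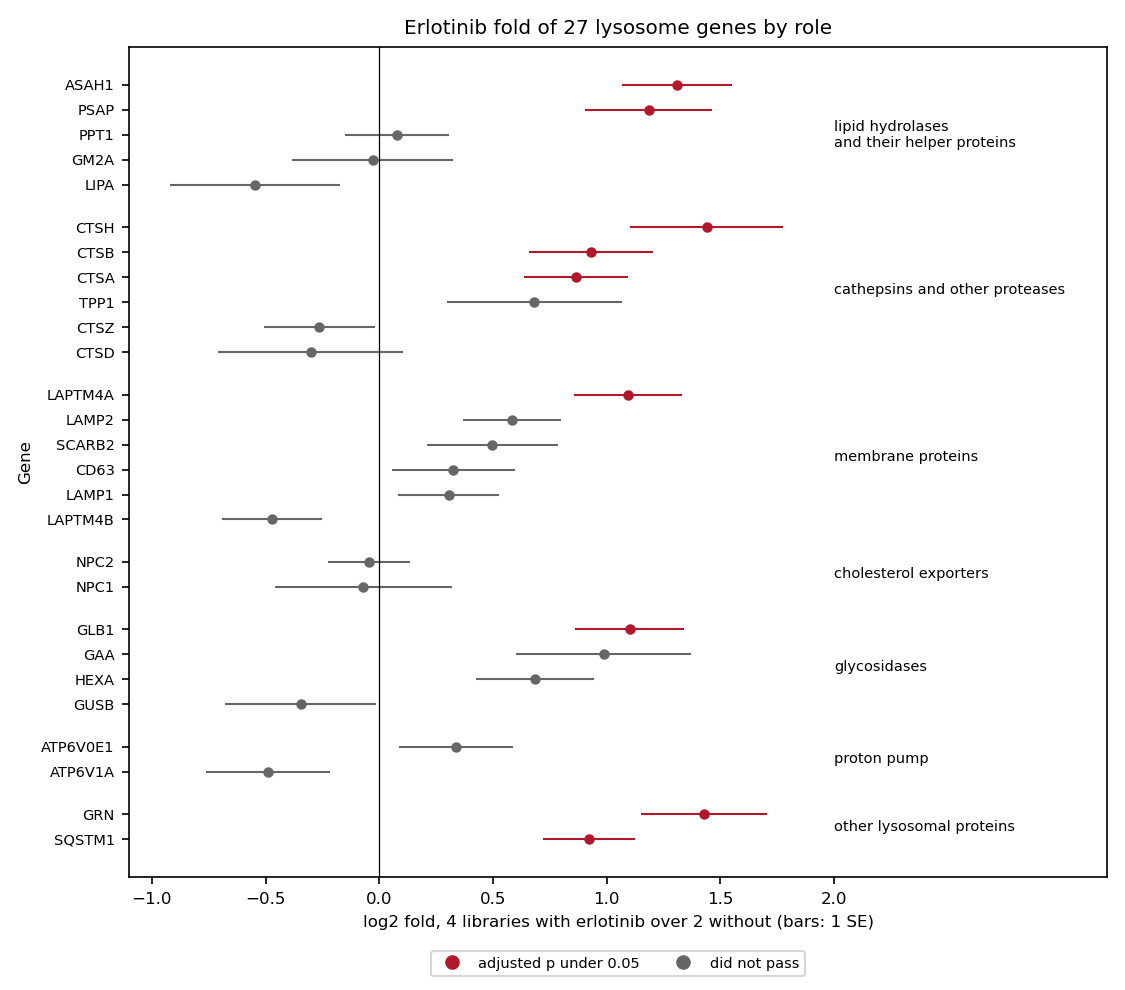
Log2 fold of 27 lysosome genes (x axis), 4 libraries with erlotinib over 2 without, with 1 standard error, grouped by role down the page. Red points passed the adjusted p threshold of 0.05, and all 9 of them lie to the right of 0.

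The counts by role from here on have the same backgrounds, 10.0% higher and 13.5% lower of all tested genes. Of the lipid hydrolases and their helper proteins, 2 of 5 rose. PSAP, the precursor of the saposins that help hydrolases reach sphingolipids, stood at 864 CPM with CPI-455, 933 CPM with KDM5A shRNA, 936 CPM in the library labelled KDM5A and KDM5B shRNA and 568 CPM with KDM5A cDNA, against 279 CPM with scrambled shRNA and 471 CPM in untreated cells. Every erlotinib library was above both others, with the KDM5A cDNA library nearest to them. The log2 fold was 1.18 with a standard error (SE) of 0.28 (edgeR adjusted p = 0.0132), and without the scrambled library it was 0.87 (adjusted p = 0.0875).

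ASAH1, acid ceramidase, stood at 152, 189, 180.5 and 119 CPM in the CPI-455, KDM5A shRNA, labelled KDM5A and KDM5B shRNA and KDM5A cDNA libraries, against 62.6 CPM with scrambled shRNA and 70.8 CPM untreated. The groups did not overlap, and the lowest erlotinib library was again KDM5A cDNA. Its log2 fold was 1.31 (SE 0.24, edgeR adjusted p = 0.00431), and it passed in all 15 alternatives run. The others did not pass. GM2A, the activator of ganglioside breakdown, had a log2 fold of -0.03 (SE 0.36). PPT1, which removes fatty acids from proteins, had 0.08 (SE 0.23), and LIPA, the acid lipase of cholesteryl esters, -0.55 (SE 0.37). LIPA was high in a single library, at 47.0 CPM in untreated cells, with between 16.3 and 26.3 CPM in the other 5.

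Among the cathepsins and other proteases, 3 of 6 rose. CTSH, a cysteine protease that acts mainly as an aminopeptidase, had the largest fold of the members. It stood at 237, 146, 175 and 91.5 CPM in the CPI-455, KDM5A shRNA, labelled KDM5A and KDM5B shRNA and KDM5A cDNA libraries, against 50.2 CPM with scrambled shRNA and 72.0 CPM untreated. The CPI-455 library was the highest and the KDM5A cDNA library lay just above the untreated one. The log2 fold was 1.44 (SE 0.34, edgeR adjusted p = 0.0132), and without the scrambled library it was 1.23 (adjusted p = 0.0846).

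CTSB, a cysteine protease, stood at 155, 247, 259 and 158 CPM in the CPI-455, KDM5A shRNA, labelled KDM5A and KDM5B shRNA and KDM5A cDNA libraries, against 104 CPM with scrambled shRNA and 117 CPM untreated. CTSA, a carboxypeptidase that also protects beta-galactosidase, stood at 121, 149, 161 and 114 CPM in the same erlotinib libraries, against 68.8 CPM with scrambled shRNA and 85.4 CPM untreated. In both genes the 2 shRNA libraries were highest and all erlotinib libraries were above both others. The log2 folds were 0.93 for CTSB (SE 0.27, edgeR adjusted p = 0.0320) and 0.86 for CTSA (SE 0.23, adjusted p = 0.0218). Either call was lost without the scrambled library (adjusted p = 0.134 for CTSB and 0.124 for CTSA), without the untreated library (0.107 and 0.0594) and without the library labelled KDM5A and KDM5B shRNA (0.104 and 0.0791). CTSA overlaps PLTP and NEURL2 on the opposite strand, and strand use in counting is not given in the sources used here.

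CTSD, the main aspartic protease, did not pass (log2 fold -0.30, SE 0.41, edgeR adjusted p = 0.622), and its libraries overlapped widely. It stood at 366 CPM with CPI-455, 194 CPM with KDM5A shRNA, 251 CPM in the library labelled KDM5A and KDM5B shRNA and 171 CPM with KDM5A cDNA, against 156 CPM with scrambled shRNA and 468 CPM in untreated cells. The untransduced libraries, CPI-455 and untreated, were the highest, and all 4 transduced libraries were lower. Without the untreated library the fold was 0.63 and did not pass. TPP1, a tripeptidyl peptidase, had a log2 fold of 0.68 (SE 0.38), and CTSZ, a carboxypeptidase, -0.26 (SE 0.24), and neither passed.

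**Figure D2:**
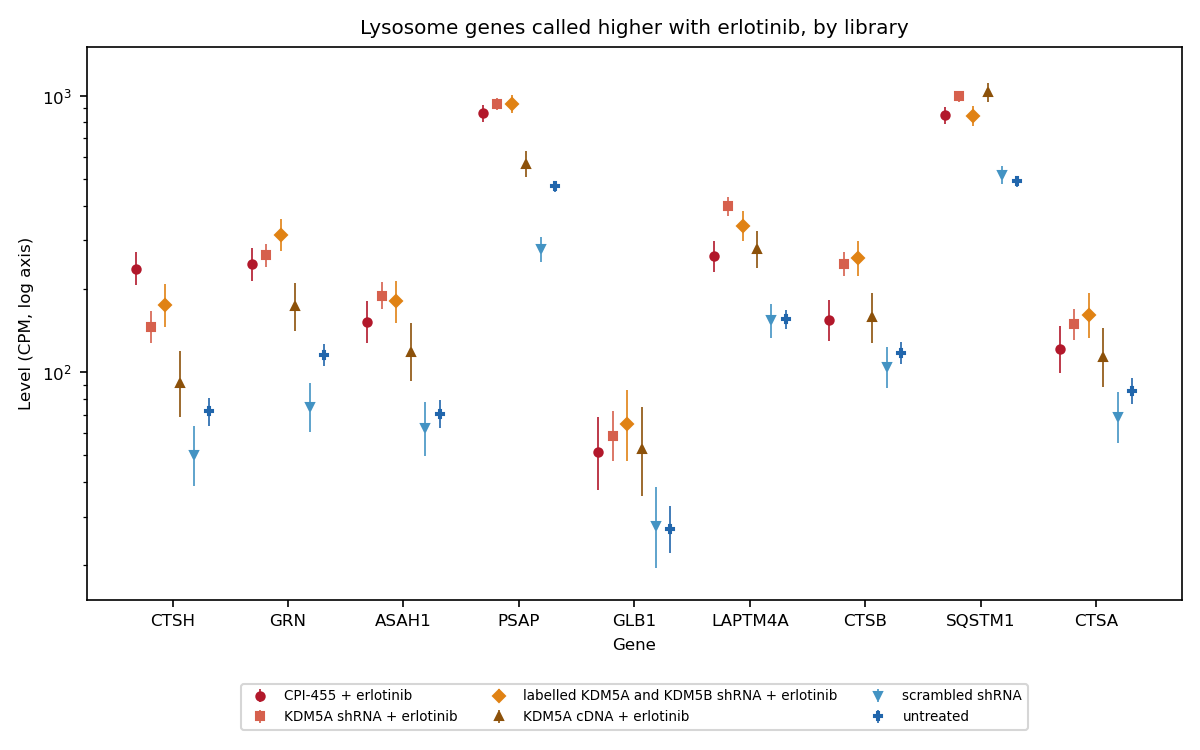
Level in CPM (log axis) of the 9 lysosome genes higher with erlotinib, in each of the 6 libraries; bars are exact 95% Poisson intervals and cover counting error only. In each gene the 4 erlotinib libraries lie above the scrambled shRNA and untreated libraries.

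Of 4 glycosidases with a row, 1 rose. GLB1, lysosomal beta-galactosidase, stood at 51.5, 58.9, 64.8 and 52.5 CPM in the CPI-455, KDM5A shRNA, labelled KDM5A and KDM5B shRNA and KDM5A cDNA libraries, against 27.8 CPM with scrambled shRNA and 27.0 CPM untreated. The erlotinib libraries lay close together, as did the other pair. Its log2 fold was 1.10 (SE 0.24, edgeR adjusted p = 0.00972), and without the untreated library 1.02 (adjusted p = 0.0735). GLB1 shares its locus with TMPPE on the same strand.

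GAA, the acid glucosidase that breaks down glycogen, stood at 65.2, 50.1, 48.2 and 20.3 CPM in the same 4 erlotinib libraries, against 17.8 CPM with scrambled shRNA and 29.6 CPM untreated. The KDM5A cDNA library lay between the libraries without erlotinib, so the groups overlapped, and the log2 fold of 0.99 did not pass (SE 0.39, edgeR adjusted p = 0.0870). Without the KDM5A cDNA library it was 1.21 (adjusted p = 0.0206). HEXA, the alpha subunit of hexosaminidase A, stood at 71.0, 87.7, 110.2 and 69.5 CPM in the erlotinib libraries, against 45.6 CPM with scrambled shRNA and 62.2 CPM untreated. These did not overlap, but the log2 fold of 0.69 did not pass (SE 0.26, adjusted p = 0.0794). GUSB, beta-glucuronidase, had a log2 fold of -0.35 (SE 0.33) and did not pass.

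GRN and SQSTM1 both rose. GRN encodes progranulin, a secreted and lysosomal protein that is split into granulins. It stood at 246, 265, 314 and 173 CPM in the CPI-455, KDM5A shRNA, labelled KDM5A and KDM5B shRNA and KDM5A cDNA libraries, against 74.9 CPM with scrambled shRNA and 116 CPM untreated. All erlotinib libraries were above both others. The log2 fold was 1.43 (SE 0.28, edgeR adjusted p = 0.00531), and it passed in all 15 alternatives.

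SQSTM1, the autophagy receptor p62, carries ubiquitinated cargo to the lysosome and is itself degraded there. Its level was 848, 993, 845 and 1029 CPM in the CPI-455, KDM5A shRNA, labelled KDM5A and KDM5B shRNA and KDM5A cDNA libraries, against 518 CPM with scrambled shRNA and 490.3 CPM untreated. Here the KDM5A cDNA library was the highest, unlike in the other genes called. The log2 fold was 0.92 (SE 0.20, edgeR adjusted p = 0.0102), and without the untreated library 0.83 (adjusted p = 0.0532). SQSTM1 overlaps MGAT4B on the opposite strand.

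Of the 7 membrane proteins, 1 rose, 5 did not pass and 1 (MCOLN1) was not tested. LAPTM4A, a small membrane protein of late endosomes and lysosomes, stood at 262, 398, 339 and 278 CPM in the CPI-455, KDM5A shRNA, labelled KDM5A and KDM5B shRNA and KDM5A cDNA libraries, against 154 CPM with scrambled shRNA and 155 CPM untreated. The KDM5A shRNA library was the highest and the groups did not overlap. The log2 fold was 1.09 (SE 0.24, edgeR adjusted p = 0.00940), and without the untreated library 1.04 (adjusted p = 0.0501). Its paralog LAPTM4B stood at 93.8, 108, 110.2 and 117 CPM in the same erlotinib libraries, against 177 CPM with scrambled shRNA and 129 CPM untreated. All 4 were below both others, and the log2 fold of -0.47 did not pass (SE 0.22, adjusted p = 0.140).

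LAMP1 and LAMP2 are the most abundant glycoproteins of the lysosomal membrane, and LAMP2 also takes part in autophagy. LAMP2 stood at 188, 191, 205 and 144 CPM in the CPI-455, KDM5A shRNA, labelled KDM5A and KDM5B shRNA and KDM5A cDNA libraries, against 134 CPM with scrambled shRNA and 116 CPM untreated. These did not overlap, and the log2 fold was 0.58 (SE 0.22, edgeR adjusted p = 0.0738). LAMP1, with E-boxes in its promoter, overlapped between groups and its log2 fold was 0.30 (SE 0.22, adjusted p = 0.340). CD63, a tetraspanin of late endosomes and exosomes, stood at 359, 673, 610.4 and 441 CPM in the erlotinib libraries, against 426 CPM with scrambled shRNA and 433 CPM untreated. The shRNA libraries were high and the CPI-455 library was the lowest of all 6, and the log2 fold was 0.32 (SE 0.27, adjusted p = 0.407). SCARB2, the receptor that carries glucocerebrosidase to lysosomes, had a log2 fold of 0.50 (SE 0.29).

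Neither cholesterol exporter passed. NPC2, which hands cholesterol to NPC1 in the lumen, was the member with the highest level. It stood at 1022, 1052, 971 and 983 CPM in the CPI-455, KDM5A shRNA, labelled KDM5A and KDM5B shRNA and KDM5A cDNA libraries, against 969.5 CPM with scrambled shRNA and 1173 CPM untreated. The groups overlapped, and the log2 fold was -0.05 (SE 0.18, edgeR adjusted p = 0.872). NPC1, the membrane partner, had a log2 fold of -0.07 (SE 0.39).

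The proton pump subunits did not pass either. ATP6V0E1, in the membrane sector, stood at 319, 509.9, 428.5 and 322 CPM in the CPI-455, KDM5A shRNA, labelled KDM5A and KDM5B shRNA and KDM5A cDNA libraries, against 344 CPM with scrambled shRNA and 302 CPM untreated (log2 fold 0.34, SE 0.25). The shRNA libraries were the highest, and the groups overlapped. ATP6V1A, the catalytic subunit, was lower in every erlotinib library than in both others, and its log2 fold was -0.49 (SE 0.27, edgeR adjusted p = 0.211).

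**Figure D3:**
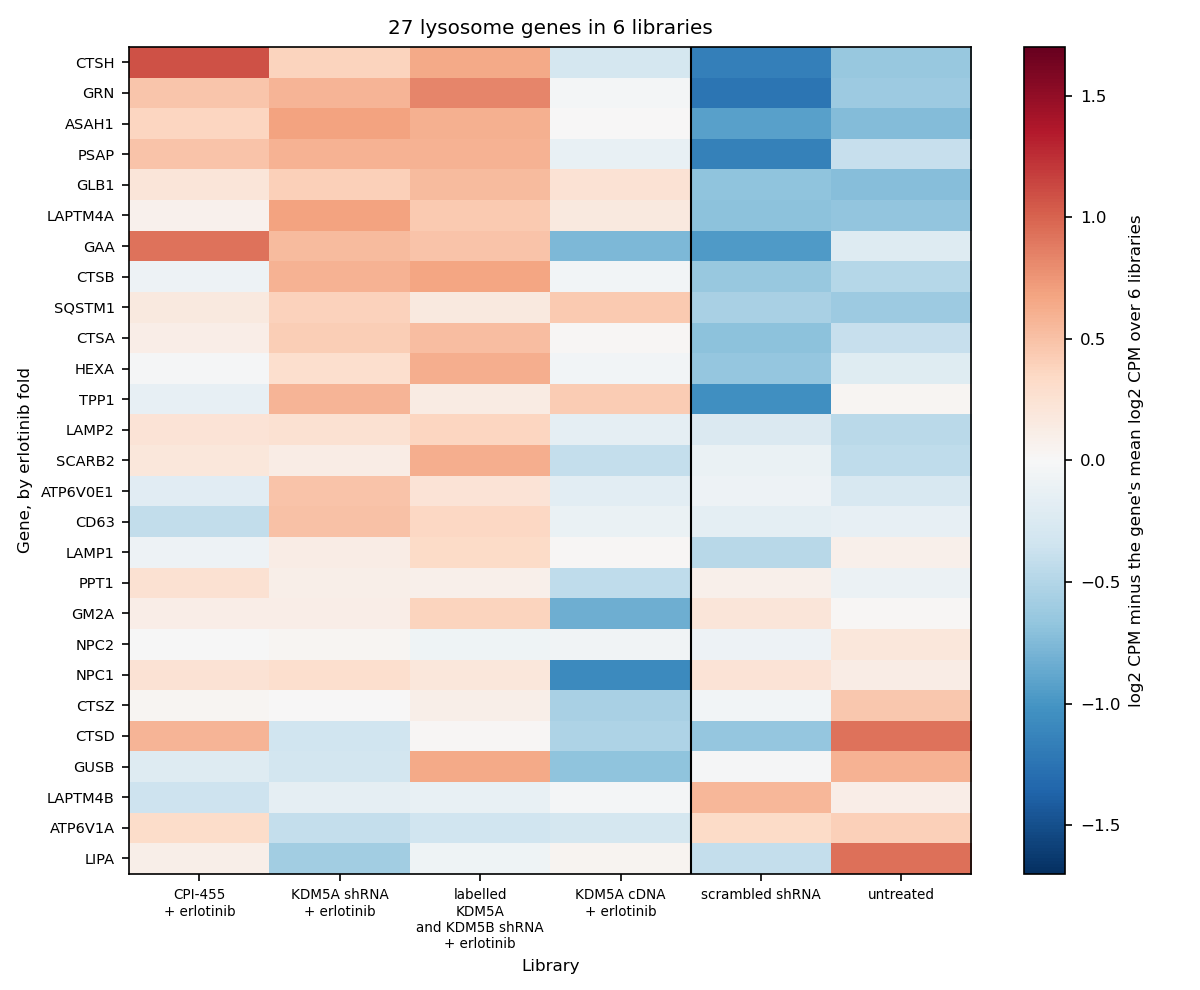
Log2 CPM of 27 lysosome genes (rows, ordered by erlotinib fold) minus the gene's mean over the 6 libraries (columns); the line parts the 4 erlotinib libraries from the 2 without. Genes at the top are high left of the line, and CTSD and LIPA are highest in untreated cells.

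Summed over the 28 genes, the level was 5983, 6800, 6653 and 5291 CPM in the CPI-455, KDM5A shRNA, labelled KDM5A and KDM5B shRNA and KDM5A cDNA libraries, against 4102 CPM with scrambled shRNA and 4930 CPM untreated. The KDM5A cDNA library was the nearest to the untreated one. Its place above untreated cells depended on SQSTM1. Without that gene it summed to 4262 CPM, against 4440 CPM untreated and 3585 CPM with scrambled shRNA. It stayed above untreated cells without NPC2 (4308 against 3756 CPM) and without PSAP (4723 against 4459 CPM). With all of these left out it was 2711 CPM, against 2796 CPM untreated. The 18 tested genes that did not pass summed to between 2708 and 3413 CPM with erlotinib, against 2760 CPM with scrambled shRNA and 3321 CPM untreated, and these ranges overlapped. These 18 genes were picked by the test on the same libraries, so nothing is read from that overlap.

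Further lysosomal genes were taken from wider lists. Of 48 other lysosomal genes tested, 5 rose and 1 fell, with a median log2 fold of 0.22, against the backgrounds of 10.0% higher and 13.5% lower, so the share that rose was near the background. The cysteine protease CTSS stood at 35.5, 52.6, 99.2 and 25.4 CPM in the CPI-455, KDM5A shRNA, labelled KDM5A and KDM5B shRNA and KDM5A cDNA libraries, against 2.32 CPM with scrambled shRNA and 4.80 CPM untreated (log2 fold 3.78, SE 0.61, edgeR adjusted p = 0.00270). Its scrambled level rests on 3 UMIs. CTSF, another cysteine protease, rose by 1.65 on the log2 scale (SE 0.38, adjusted p = 0.0117). SIDT2, a lysosomal nucleic acid transporter, had 2.75 (SE 0.71, adjusted p = 0.0194) on few UMIs. DNASE2, the acid nuclease, had 0.71 (SE 0.23, adjusted p = 0.0432), and ATP6AP2, an accessory subunit of the proton pump, 0.67 (SE 0.22, adjusted p = 0.0467). CTSC, a dipeptidyl peptidase, fell by 0.82 on the log2 scale (SE 0.21, adjusted p = 0.0190). None of 10 other glycosidases and sulfatases passed (0 of 10), and of 13 other V-ATPase subunits 1 did.

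Of 22 autophagy genes tested, 8 rose and 0 fell, with a median log2 fold of 0.60, against the same backgrounds of 10.0% and 13.5%. GABARAPL1, a ubiquitin-like protein of the autophagosome membrane, stood at 128, 241, 212 and 115 CPM in the CPI-455, KDM5A shRNA, labelled KDM5A and KDM5B shRNA and KDM5A cDNA libraries, against 13.9 CPM with scrambled shRNA and 35.6 CPM untreated. Its log2 fold was 2.80 (SE 0.44, edgeR adjusted p = 0.00257). WIPI1, which binds phosphoinositides on forming autophagosomes, rose by 2.62 on the log2 scale (SE 0.48, adjusted p = 0.00400), and OPTN, an autophagy receptor like SQSTM1, 2.53 (SE 0.38, adjusted p = 0.00154). WIPI1 had 2 UMIs with scrambled shRNA (1.55 CPM), under the level of a count of 3 in that library (2.32 CPM).

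Among 16 tested genes of the MiT/TFE factors, mTORC1, the Rag GTPases and Ragulator, which sense nutrients at the lysosome, 1 rose and 1 fell. The backgrounds over all tested genes were again 10.0% higher and 13.5% lower. RRAGB, a Rag GTPase, rose, with a fold of 1.29 in log2 units (SE 0.30, edgeR adjusted p = 0.0129), and MLST8, an mTOR subunit, -0.86 (SE 0.27, adjusted p = 0.0432). TFEB was too low to be tested, at between 0.626 and 3.09 CPM in the 6 libraries. MITF did not pass (log2 fold 1.04, SE 0.38, adjusted p = 0.0693). Of 21 genes that sort proteins to lysosomes 1 rose: GNPTG, a subunit of the enzyme that makes the mannose 6-phosphate tag, higher by 1.43 on the log2 scale (SE 0.26, adjusted p = 0.00380).

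Between single libraries no test was possible, and ratios carry only the counting error of the UMIs, as exact 95% intervals of a ratio of 2 Poisson counts. Genes with at least 50 CPM in either library were compared, and a ratio of 2 or more was counted. With CPI-455 and erlotinib against untreated cells, 4 of 22 lysosome genes were 2-fold or more higher and 0 lower, against backgrounds of 12.0% and 16.2%. These were CTSH at a log2 ratio of 1.72 (interval 1.45 to 1.98), GAA at 1.14 (0.66 to 1.61), ASAH1 at 1.10 (0.80 to 1.41) and GRN at 1.09 (0.85 to 1.33). GUSB was the lowest, at 42.3 CPM with CPI-455 and 73.8 CPM untreated, a log2 ratio of -0.80 (-1.34 to -0.30). CTSD had -0.35 (-0.53 to -0.18) and LAPTM4B -0.46 (-0.82 to -0.12). Intervals lay above 0 in 13 of the 22 genes and below 0 in 6. The shares of all genes with such intervals were not computed. The median log2 ratio was 0.45 for the lysosome genes and -0.16 for all 4468 genes compared.

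With KDM5A shRNA and erlotinib against scrambled shRNA, 9 of 21 were 2-fold or more higher and 0 lower, against backgrounds of 13.6% and 18.1%. GRN had a log2 ratio of 1.82 (1.501 to 2.16), PSAP 1.74 (1.58 to 1.91) and ASAH1 1.60 (1.24 to 1.97). The others past 2-fold were CTSA, CTSB, CTSH, LAPTM4A, GLB1 and GAA. LAPTM4B, at -0.71 (-1.0004 to -0.42), was the only one of the 21 with an interval below 0. The median log2 ratio was 0.94 for the lysosome genes and -0.13 for all genes.

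The library labelled KDM5A and KDM5B shRNA, set against scrambled shRNA, also had 9 of 21 higher and 0 lower, against backgrounds of 15.2% and 20.5%. GRN had a log2 ratio of 2.07 (1.72 to 2.43), PSAP 1.75 (1.56 to 1.93) and CTSH 1.80 (1.36 to 2.26). CTSA, CTSB, LAPTM4A, HEXA, GLB1 and ASAH1 were the others past 2-fold, and LAPTM4B had -0.68 (-1.07 to -0.31). These ratios and those above share the scrambled library.

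With KDM5A cDNA and erlotinib against scrambled shRNA, 2 of 19 were higher and 0 lower, against backgrounds of 13.8% and 17.8%. They were GRN at a log2 ratio of 1.21 (0.79 to 1.62) and PSAP at 1.03 (0.81 to 1.24). SQSTM1 lay just under 2-fold, at 0.99 (0.83 to 1.15). LAPTM4B had -0.60 (-1.01 to -0.20) and PPT1 -0.52 (-1.03 to -0.04). The median log2 ratio was 0.60 for the lysosome genes and -0.15 for all genes.

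The libraries without erlotinib also differed. With scrambled shRNA against untreated cells, 0 of 19 were 2-fold or more higher and 1 was lower, against backgrounds of 2.29% and 4.92%. That gene was CTSD, with a log2 ratio of -1.58 (-1.80 to -1.37). PSAP had -0.75 (-0.92 to -0.59) and GRN -0.62 (-0.96 to -0.31), while LAPTM4B had 0.45 (0.22 to 0.68). The summed level of the lysosome genes had a log2 ratio of -0.27 (-0.31 to -0.22). Ratios of a transduced erlotinib library against scrambled shRNA are therefore larger than the same library's level against untreated cells would give for PSAP and GRN.

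Among the erlotinib libraries, KDM5A shRNA against KDM5A cDNA had 1 of 21 lysosome genes 2-fold or more higher and 0 lower, against backgrounds of 5.14% and 8.78%. That gene was GAA, at 50.1 CPM with KDM5A shRNA and 20.3 CPM with KDM5A cDNA, a log2 ratio of 1.30 (0.42 to 2.31). PSAP had 0.72 (0.55 to 0.89) and ATP6V0E1 0.66 (0.43 to 0.90). The median log2 ratio was 0.53 for the lysosome genes and 0.06 for all genes. In 11 of the 21 genes the interval lay above 0, and in 0 below, but the shares of all genes with such intervals were not computed. The summed level had a log2 ratio of 0.36 (0.30 to 0.42). Erlotinib was started on different days after transduction in these libraries, and the processed pseudogene share was 1.32% with KDM5A shRNA and 3.42% with KDM5A cDNA. The part of either in these ratios was not tested.

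With CPI-455 against KDM5A shRNA, both with erlotinib, 0 of 21 were 2-fold or more higher or lower, against backgrounds of 7.70% and 5.39%. CTSD had a log2 ratio of 0.92 (0.69 to 1.15) and CTSH 0.70 (0.42 to 0.98). CD63 had -0.91 (-1.09 to -0.72), CTSB -0.68 (-0.97 to -0.39) and ATP6V0E1 -0.68 (-0.88 to -0.48). The library labelled KDM5A and KDM5B shRNA against KDM5A shRNA had 0 of 22 past 2-fold either way, against backgrounds of 3.18% and 0.777%. GUSB was nearest, at 77.2 CPM in the library labelled with both shRNAs and 39.5 CPM with KDM5A shRNA, a log2 ratio of 0.97 (0.42 to 1.51). The summed level of these libraries had a log2 ratio of -0.03 (-0.08 to 0.02).

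Within libraries, cells were compared after each was thinned to 1000 UMIs, which left out between 26 and 344 shallower cells a library. The median share of a cell's UMIs from lysosome genes was 0.6% with CPI-455, 0.7% with KDM5A shRNA, 0.7% in the library labelled KDM5A and KDM5B shRNA and 0.5% in the KDM5A cDNA library, against 0.4% with scrambled shRNA and 0.5% untreated. Without thinning the medians were 0.594%, 0.670%, 0.647% and 0.527% in the erlotinib libraries, against 0.401% with scrambled shRNA and 0.492% untreated. The interquartile ranges of thinned cells overlapped between all libraries. Without thinning, the ranges of the KDM5A shRNA library (0.565% to 0.772%) and of the library labelled KDM5A and KDM5B shRNA (0.519% to 0.796%) lay above that with scrambled shRNA (0.317% to 0.492%). Of 164, 332, 124 and 105 thinned cells with erlotinib, 1, 1, 0 and 1 had no lysosome gene UMI, against 7 of 222 with scrambled shRNA and 8 of 822 untreated.

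**Figure D4:**
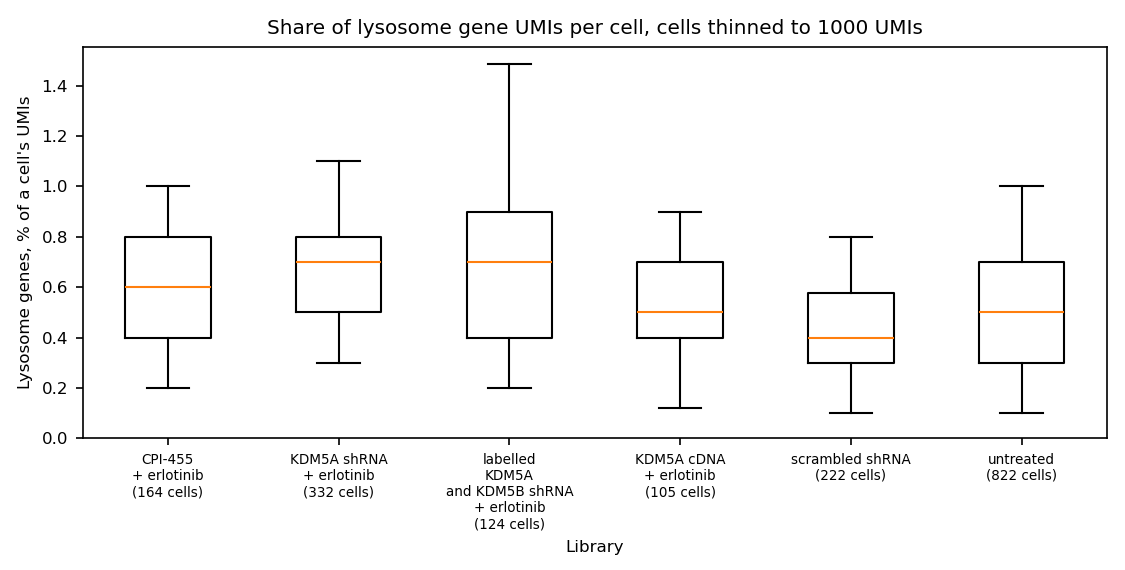
Share of a cell's UMIs that came from lysosome genes (y axis, percent), by library, in cells thinned to 1000 UMIs; boxes show the median and quartiles and whiskers the 5th and 95th percentiles over cells. The medians lie between 0.5% and 0.7% with erlotinib and at 0.4% and 0.5% in the scrambled shRNA and untreated libraries, and the boxes overlap.

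PSAP was found, after thinning, in 59.1% of cells with CPI-455, 55.4% with KDM5A shRNA, 56.5% in the library labelled KDM5A and KDM5B shRNA and 42.9% in the KDM5A cDNA library, against 24.8% with scrambled shRNA and 38.7% untreated. Without thinning these shares were 78.7%, 85.3%, 84.2% and 71.0% in the erlotinib libraries, against 57.8% with scrambled shRNA and 58.5% untreated. The unthinned shares were taken at unlike depths. Kept untreated cells had a median of 1493.5 UMIs, against medians between 2985.5 and 3762.5 in the other libraries. GRN was found in 21.3%, 23.8%, 31.5% and 14.3% of thinned cells with erlotinib, against 9.01% with scrambled shRNA and 12.7% untreated. NPC2, whose level did not pass the test, was found in between 52.4% and 61.7% of thinned cells with erlotinib, against 58.1% with scrambled shRNA and 66.9% untreated. Variation between cells beyond counting was small for the summed genes. The excess of the variance over the mean, relative to the squared mean, lay between 0.011 and 0.123 in the erlotinib libraries, against 0.071 with scrambled shRNA and 0.059 untreated. Among single genes with enough UMIs for it, the highest values of this measure were 1.32 for CTSD with KDM5A shRNA, 0.923 for LAMP2 in untreated cells, 0.860 for GRN in the library labelled KDM5A and KDM5B shRNA and 0.745 for CTSD in untreated cells. These rest on few UMIs a cell, at most 7 in a thinned cell.

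Since cell cycle genes were lower with erlotinib, cells of each library were also split by their UMIs from the cell cycle list. In untreated cells, the summed lysosome gene level was 4979 CPM in the 645 cells with 2 or more cycle UMIs, 5545 CPM in the 89 cells with 1 and 6125 CPM in the 88 cells with 0. The log2 ratio of cells with 2 or more over cells with 0 was -0.30 (-0.43 to -0.16, counting error only). Median depth before thinning differed little between these cells, at 2198 UMIs in those with 2 or more cycle UMIs and 1870.5 in those with 0. Among the genes with enough UMIs for a ratio of their own, no single gene's interval excluded 0 in untreated cells. With scrambled shRNA the same log2 ratio was -0.41 (-0.91 to 0.13), but it rests on 6 cells with 0 cycle UMIs. There the interval excluded 0 for CD63, at -1.72 (-2.77 to -0.46), and for NPC2, at 2.72 (0.22 to 8.03). Those 6 cells held 8 CD63 UMIs and 1 NPC2 UMI. Among cells with 0 cycle UMIs, the level was 6183 CPM in 104 cells with CPI-455, 6576 CPM in 257 with KDM5A shRNA, 7534 CPM in 88 of the library labelled KDM5A and KDM5B shRNA and 5355 CPM in 62 with KDM5A cDNA, against 5667 CPM in 6 with scrambled shRNA and 6125 CPM in 88 untreated. The KDM5A cDNA cells were the lowest of these, below both libraries without erlotinib, so the groups overlapped. The CPI-455 value was close to the untreated one, and the scrambled value rests on 6 cells. Among cells with 1 cycle UMI, the level was 6206, 7407, 6483 and 5881 CPM in the erlotinib libraries, in the same order, against 3337 CPM with scrambled shRNA and 5545 CPM untreated. All 4 lay above both others, but the scrambled value rests on 12 cells. Only the counting interval with KDM5A shRNA (6760 to 8100 CPM) lay wholly above the untreated one (5066 to 6057 CPM). Among cells with 2 or more, it was 5266, 6428, 5966 and 4756 CPM with erlotinib, against 4261 CPM with scrambled shRNA and 4979 CPM untreated. There the KDM5A cDNA library lay between the libraries without erlotinib and the other 3 lay above both. All 4 counting intervals with erlotinib overlapped the untreated one (4807 to 5155 CPM).

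**Figure D5:**
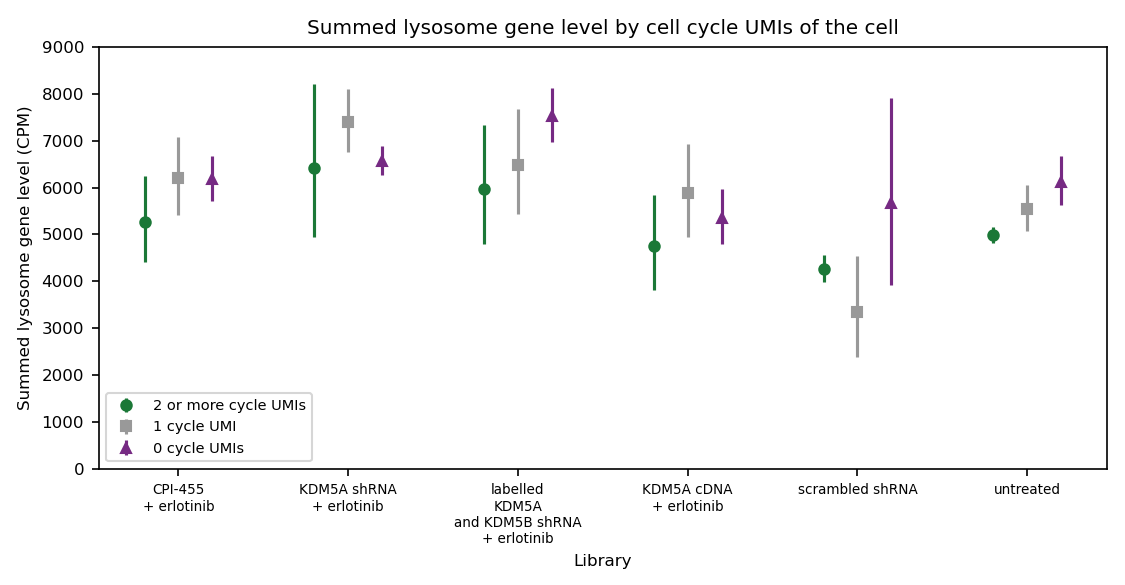
Summed level of the lysosome genes in CPM (y axis) in cells with 2 or more, 1 or 0 UMIs of the cell cycle list, by library, after thinning to 1000 UMIs; bars are exact 95% Poisson intervals. In untreated cells the level is 4979 CPM with 2 or more cycle UMIs and 6125 CPM with 0.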

How the data were processed

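The authors deposited raw UMI counts for each cell barcode and gene symbol, which are whole and not normalized, as their values show. STAR, FastQC and the build GRCh37.p13 (hg19) are named, without versions, per the submitters' processing notes; the counting settings are not given in the sources used here. Barcodes with at least 500 UMIs and at most 20% MT- UMIs were kept and their UMIs summed per library. Doublets were not called, since the cells are 1 line.

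Erlotinib was tested with edgeR 4.0.16 (R 4.3.3; TMM, filterByExpr, robust quasi-likelihood fit, Benjamini-Hochberg over 10445 genes), with 4 libraries against 2 and all 6 in the fit. Where nothing else is said, an adjusted p is from this fit. DESeq2 1.42.0 and limma 3.58.1 were alternatives. On simulated counts for this comparison over 9910 genes, 20 of 95 genes changed 2-fold and 88 of 93 changed 4-fold were called, with 5 of 9722 unchanged ones. Nothing says that libraries came from separate cultures, so p-values measure the spread between these libraries. Pairs of libraries have exact 95% counting intervals and no test, and UMI intervals and floors cover counting error only. Promoter windows came from RefSeq (GRCh38.p14), by symbol only, and overlapping genes from GENCODE.

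The genes and lists were chosen with earlier results of these data known. Values in every library are given for genes that passed, for the 10 highest by mean CPM, and for some others chosen after their values were seen (GAA, HEXA, LAPTM4B). For each pair the text names genes among the 3 highest and 3 lowest by the interval bound nearest 0, and those past 2-fold. Wider lists name up to 3 called genes.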

Additional observations from a re-analysis of the deposited data

How the results depend on the processing

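Erlotinib called 9 lysosome genes higher; this count was 5 without the scrambled library, 4 without the untreated library, 5 in the transduced libraries only, and between 4 and 10 over all libraries left out in turn. No gene (0) was called lower under any alternative run. Of 135 values of the 9 called genes under 15 alternatives (normalization, filters, tool, cell filter, thinning, libraries left out), 118 kept their call, 17 lost it and 0 changed direction; ASAH1 and GRN kept it in all, CTSA lost it in 6 and CTSB in 4. Of 265 values of the 18 others, 2 passed (GAA without KDM5A cDNA, LAMP2 after thinning) and 18 changed sign, none of them called. Without the untreated library the log2 folds were 0.63 for CTSD, 0.25 for LIPA, 0.038 for NPC2 and -0.071 for PPT1, and in transduced libraries only 0.40 for CTSD, 0.0056 for GUSB, 0.18 for LIPA, 0.051 for NPC2 and -0.13 for PPT1. After thinning they were 0.12 for CTSZ and 0.20 for GUSB, without KDM5A cDNA 0.14 for GM2A and 0.13 for NPC1, without the scrambled library 0.08 for GM2A, with limma-voom 0.034 for GM2A and 0.0080 for NPC1, with every barcode 0.033 for NPC1, and with no filter on low counts -0.042 for PPT1. At the other end of the range over libraries left out were -0.88 for CTSD, -1.02 for LIPA and -0.16 for NPC2 without the scrambled library, and -0.19 for GM2A and -0.19 for NPC1 without the untreated one. The cause was not tested.

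The pooled log2 ratio of CPI-455 against untreated was 0.28, and 0.36 with MT- transcripts left out. Without NPC2, the gene with the most UMIs, it was 0.40, and against scrambled shRNA it was 0.88 for KDM5A shRNA, 0.86 in the library labelled KDM5A and KDM5B shRNA and 0.46 for KDM5A cDNA (0.73, 0.70 and 0.37 with it). After thinning it was 0.67 for KDM5A shRNA and 0.76 for the labelled library against scrambled shRNA, and 0.089 between these shRNA libraries, against -0.03 unthinned. No paired analysis was possible because each condition had 1 library and the labels carry no replicate numbers. Depth limits genes at a few CPM, such as MCOLN1.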

Other observations

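Barcodes left out of the comparisons also held lysosome gene UMIs. In those under 500 UMIs the share was 0.555% with CPI-455, 0.626% with KDM5A shRNA, 0.481% in the library labelled KDM5A and KDM5B shRNA and 0.446% in the KDM5A cDNA library, against 0.356% with scrambled shRNA and 0.482% untreated. In kept cells it was 0.598%, 0.680%, 0.665% and 0.529% in the erlotinib libraries, against 0.410% with scrambled shRNA and 0.493% untreated.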
